A study of Mus musculus with 3 samples.

Results

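The integrins, the laminins and 5 of their partners in the basement membrane were followed through RNA-seq libraries of lymphatic endothelial cells from the mouse large intestine. Members were taken by gene symbol from the deposited tables: every integrin α and β subunit, every laminin α, β and γ chain, the nidogens Nid1 and Nid2, perlecan (Hspg2), agrin (Agrn) and fibronectin (Fn1). This gave 42 of the 24091 genes in each table, with 18 integrin α subunits, 8 integrin β subunits, 11 laminin chains and 5 partners. The cells came from C57BL/6 mice and were sorted on surface markers, among them CD31, podoplanin and LYVE1. The 3 libraries, called replicates 1, 2 and 3, form 1 group, and the labels give no treatment, age or control group. The deposited names also carry the word 'Water', which the labels do not explain and which was not used here. Nothing in the labels says whether the libraries came from separate animals, and their spread may be technical. Values are TPM, a level corrected for transcript length and library size, unless a log2 scale is named, with means ± SD over n = 3 libraries.

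Integrins are receptors made of 1 α and 1 β subunit that anchor cells to the matrix and pass signals across the membrane. Laminins are secreted trimers of an α, a β and a γ chain, and their polymer forms the first layer of a basement membrane. Nidogens, perlecan and agrin tie that layer to the collagen IV network and to the cell. Colon epithelium and blood vessels rest on continuous basement membranes, whereas that of initial lymphatic vessels is sparse and interrupted. In lymphatic collecting vessels, α9 integrin is needed for the formation of valve leaflets.

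The label was checked against marker genes before the members were read. All 11 lymphatic markers reached a TPM of 1 in every library, but the 14 epithelial markers summed to 19791 to 24997 TPM, against 983.6 to 1771 TPM for the lymphatic markers. All 12 blood endothelial markers reached it too, and summed to 979.4, 907.7 and 1030 TPM in replicates 1, 2 and 3. In replicate 3 this lay above the lymphatic sum, although 5 of the 12 were highest there and 6 lowest. That order rested on 1 gene, Car4, at 143.3, 148.4 and 289.3 TPM in replicates 1, 2 and 3. Without Car4 the blood endothelial sum in replicate 3 lay below the lymphatic sum. A level in these libraries therefore does not assign a member to a cell type. Replicate 3 stood apart in its markers. Its lymphatic sum was 983.6 TPM, against 1692 and 1771 TPM in replicates 1 and 2. Its fibroblast sum was 448.4 TPM, against 182 and 124 TPM, and its macrophage and dendritic cell sum was 550.0 TPM, against 248 and 173 TPM. Lymphocyte markers summed to 31.0 TPM in replicate 3, against 9.59 and 11.5 TPM in replicates 1 and 2. No marker of the 10 lists was at 0 in all libraries. In such bulk samples, fewer cells of a type and less RNA per cell cannot be told apart.

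Promoter sequences were matched for 26 of the 42 members in the RefSeq table of GRCm38.p6, the assembly behind mm10, and the 4 shown belong to members that the results below turn on. Itgb1 is the member of highest level, Itga2 the one that varied most for its level, and Lamb1 and Lamb2 are alternative β chains with the steadiest levels among the laminins. Each sequence runs 5′ to 3′ along the strand of its gene, from 250 bases before a RefSeq transcript start to 50 bases after it. That start lies at the outer end of the annotated gene for Itgb1 and Itga2, 147 bases inside it for Lamb1 and 15 bases inside it for Lamb2. Capitals mark the GC box GGGCGG, the letters that Sp and KLF factors are known to bind, on either strand. The windows are chr8:128685404-128685703 (plus strand) for Itgb1, chr13:114932051-114932350 (minus strand) for Itga2, chr12:31265043-31265342 (plus strand) for Lamb1 and chr9:108479612-108479911 (plus strand) for Lamb2.
Itgb1: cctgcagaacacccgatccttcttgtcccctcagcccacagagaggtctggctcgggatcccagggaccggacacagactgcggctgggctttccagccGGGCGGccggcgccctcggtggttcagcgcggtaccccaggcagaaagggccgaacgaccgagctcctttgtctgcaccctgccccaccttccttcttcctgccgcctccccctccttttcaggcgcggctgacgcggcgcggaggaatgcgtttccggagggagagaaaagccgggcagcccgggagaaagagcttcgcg
Itga2: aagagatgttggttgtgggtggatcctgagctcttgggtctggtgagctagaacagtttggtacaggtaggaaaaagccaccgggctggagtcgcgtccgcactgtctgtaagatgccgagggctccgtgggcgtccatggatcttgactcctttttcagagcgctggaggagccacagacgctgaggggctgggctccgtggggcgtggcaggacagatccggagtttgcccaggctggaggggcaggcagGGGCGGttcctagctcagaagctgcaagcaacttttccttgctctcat
Lamb1: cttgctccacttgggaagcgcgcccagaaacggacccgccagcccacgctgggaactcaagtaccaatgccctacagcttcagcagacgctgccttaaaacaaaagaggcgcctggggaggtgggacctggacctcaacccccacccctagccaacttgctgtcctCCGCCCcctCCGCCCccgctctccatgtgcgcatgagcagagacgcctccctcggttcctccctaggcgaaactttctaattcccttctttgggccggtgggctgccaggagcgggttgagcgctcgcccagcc
Lamb2: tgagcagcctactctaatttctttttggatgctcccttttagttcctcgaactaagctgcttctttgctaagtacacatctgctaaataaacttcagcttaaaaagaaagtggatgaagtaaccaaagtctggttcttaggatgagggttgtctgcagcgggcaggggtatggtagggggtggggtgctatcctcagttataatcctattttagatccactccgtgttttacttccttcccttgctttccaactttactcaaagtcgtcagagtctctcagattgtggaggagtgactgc
Itgb1 and Itga2 had 1 GC box each, Lamb1 had 2 and Lamb2 had none in this window. Their GC contents were 67.3%, 59.3%, 63.7% and 44%, and the median over all 32851 promoters was 52.7%. Across all promoters, 35.7% held a GC box, as did 14 of the 26 matched members at their first listed start (53.8%). The ETS core CCGGAAG was found in 1 member (Itga3) and 8.86% of all promoters, and the AP-1 site TGANTCA in 2 members (Itga9 and Itgax) and 7.81%. TATAAA was found in none of the 26 members and in 13.6% of all promoters. All motifs were searched on both strands, and a match is a description of letters, not a site shown to be used.

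Of the 42 members, 28 had at least 1 TPM in each library (66.7%), against 53.4% of all genes in the table. A further 10 reached it in 1 or 2 libraries, and 4 stayed below it in all 3: Itgae, Itgad, Itgb8 and Lama1. The median member lay at 7.15 ± 1.58 TPM and the median of all genes at 2.41 ± 0.376 TPM. Together the members made up 0.0597%, 0.0665% and 0.0687% of TPM in replicates 1, 2 and 3. The 5 highest by mean were Itgb1, Itga6, Itgb4, Agrn and Lama4. Itga6 (64.3 ± 14.3) and Itgb4 (61.3 ± 3.73) overlapped in their values, as did Agrn (34.9 ± 3.41) and Lama4 (32.3 ± 6.69). The next means, Itga3 (31.8 ± 8.32) and Lamb3 (29.8 ± 3.06), were close to that of Lama4. Itga3 lay above both Agrn and Lama4 in replicates 2 and 3. Itgb1 at 139.9 ± 12.8 lay above every other member in every library.

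**Figure D1:**
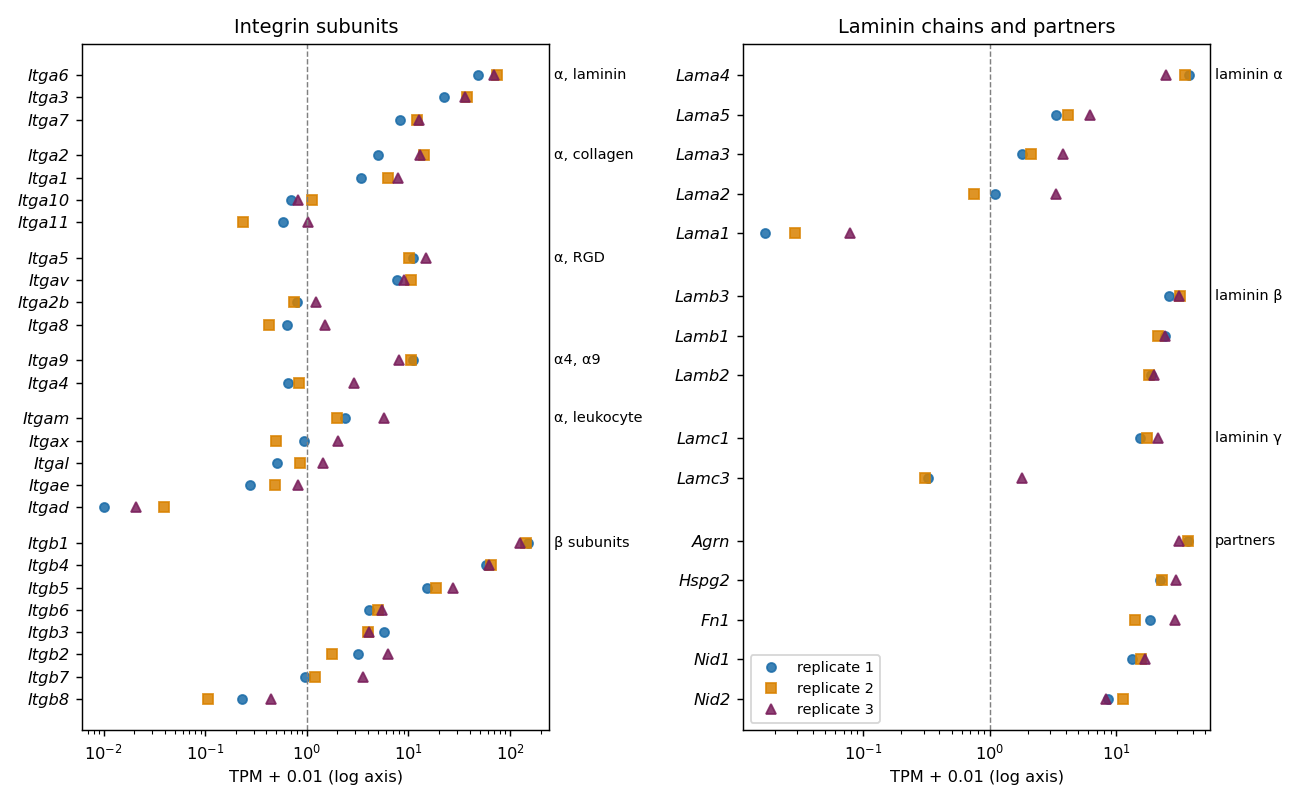
Level of 41 members in each library, as TPM + 0.01 on a log axis, with integrin subunits on the left and laminin chains and partners on the right. Circles, squares and triangles stand for replicates 1, 2 and 3 and the dashed line for a TPM of 1. Itgb1 leads at 125.5 to 150.1 TPM, and Lama1, Itgad, Itgae and Itgb8 lie below 1 TPM in every library.

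The β subunits were led by Itgb1 (chromosome 8, 128685654 to 128733579), the partner of most matrix-binding α subunits. It had 150.1, 143.9 and 125.5 TPM in replicates 1, 2 and 3 and took 59.0 ± 5.04% of all β subunit TPM. Its lowest value was in replicate 3. Itgb4 (chromosome 11, 115974725 to 116008412), which pairs with α6 in the hemidesmosomes of epithelia, had 57.3, 64.7 and 62.0 TPM. Its coefficient of variation was 6.08%, and it took 25.9 ± 1.49% of the class. Itgb5, a partner of αv in vitronectin receptors, had 15.3, 18.6 and 27.4 TPM, highest in replicate 3.
The other β subunits were low. Itgb6, the αv partner known from epithelia that activates latent TGFβ, had 4.86 ± 0.703 TPM. Itgb3, the αv partner known from activated endothelium and the αIIb partner of platelets, had 4.59 ± 0.973 TPM. The leukocyte subunit Itgb2 had 3.20, 1.78 and 6.31 TPM, and Itgb7, which pairs with α4 and αE on gut lymphocytes, had 0.946, 1.18 and 3.53 TPM. Both were highest in replicate 3. Itgb8, a further αv partner, had 0.249 ± 0.170 TPM. Summed over the class, the β subunits came to 237 ± 2.31 TPM, a sum that varied less relative to its level than that of any other member group.

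Among α subunits that bind laminin, Itga6 (chromosome 2, 71786886 to 71858427), which pairs with β1 or β4, had 48.0, 74.8 and 69.9 TPM in replicates 1, 2 and 3. Itga3, a β1 partner of epithelia and other cells, had 22.3, 37.5 and 35.7 TPM. Itga7, known above all from muscle, had 8.17, 12.03 and 12.8 TPM. All 3 genes were lowest in replicate 1, as was the median over all expressed genes, at 14.8, 18.0 and 17.8 TPM in replicates 1, 2 and 3. Together the 3 genes came to 107 ± 24.96 TPM. Itga6 alone made up 38.9 ± 1.87% of the TPM of the 18 α subunits and Itga3 19.1 ± 1.25%, shares that varied less than their levels.

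The collagen-binding α subunits, all β1 partners, lay below Itga6 and Itga3 in every library. Itga2, a collagen receptor known from epithelium and platelets, had 4.97, 14.3 and 13.0 TPM, with replicate 1 far below the other 2. Of 32 members with a mean TPM of 1 or more, Itga2 was the 1 whose SD of log2(TPM + 1) lay above percentile 95 of genes of like level (3.12%, where 5% of all genes pass). Itga1, known from smooth muscle and other stromal cells, had 3.36, 6.23 and 7.82 TPM, lowest in replicate 1, as was the median expressed gene. Itga10 (0.870 ± 0.220) and Itga11 (0.601 ± 0.392), known from cartilage and fibroblasts, lay near or below 1 TPM.

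Of the α subunits that bind RGD sequences, the fibronectin receptor subunit Itga5 had 11.1, 10.2 and 14.9 TPM and Itgav 7.61, 10.6 and 9.004 TPM. The ranges of these 2 genes overlapped. Itga8, known from smooth muscle and other mesenchymal cells, had 0.625, 0.418 and 1.499 TPM. Itga2b, which marks platelets and megakaryocytes, had 0.916 ± 0.257 TPM. The 5 platelet markers beside it ranged from Pf4 at 31.2 ± 19.0 TPM to Gp9 at 0.0394 ± 0.0342 TPM.

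Itga9 (chromosome 9, 118606709 to 118901003), the integrin gene needed for lymphatic valves, had 11.1, 10.5 and 7.97 TPM in replicates 1, 2 and 3. It was lowest in replicate 3, as were 2944 of 12862 expressed genes. Also lowest there were 10 of 11 lymphatic markers, all 8 markers of all endothelium and 6 of 12 blood endothelial markers. The ratio of Itga9 to Pecam1, which encodes CD31, was 0.0941, 0.0963 and 0.0777. Its ratio to Cdh5, which encodes VE-cadherin, was 0.267, 0.245 and 0.216, and both ratios were lowest in replicate 3. Its ratio to Lyve1, which like Pecam1 encodes a sort marker, was 0.0203, 0.0172 and 0.0254, highest there. Itga4, the closest relative of Itga9 and a subunit of lymphocyte homing receptors, had 0.637, 0.829 and 2.92 TPM. Itga4 was highest in replicate 3, as were 8126 of all 24091 genes, and the lymphocyte markers were highest there too. The part of these markers in the value was not tested.

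Of the 5 α subunits of leukocytes, Itgam was the 1 that reached a TPM of 1 in every library. Itgam, of macrophages and granulocytes, had 2.34, 1.98 and 5.77 TPM. Itgax, of dendritic cells and some macrophages, had 0.936, 0.491 and 2.02 TPM. Itgal, the α subunit of LFA-1, had 0.504, 0.837 and 1.42 TPM, and Itgae, the αE subunit of intraepithelial lymphocytes, had 0.264, 0.471 and 0.817 TPM. These 4 genes were highest in replicate 3, as were all 8 macrophage and dendritic cell markers and all 8 lymphocyte markers. Being highest there was common, at 8126 of all 24091 genes, 5204 of 12862 expressed genes and 28 of 42 members. Itgad was listed at 0, 0.0296 and 0.0109 TPM. In the GENCODE M21 annotation, 68.7% of the exon bases of Itgam are shared with the same-strand gene Gm49368, and 33.5% of those of Itga10 with Gm42957, so their values are uncertain. A further 13 members share at most 8.6% of their exon bases with another gene, mostly one on the opposite strand.

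The laminin α chains were led by Lama4 (chromosome 10, 38965515 to 39110188), the α chain typical of endothelium. It had 37.5, 34.6 and 24.7 TPM in replicates 1, 2 and 3, lowest in replicate 3. Lama5, the α chain shared by mature epithelial and endothelial basement membranes, had 3.34, 4.10 and 6.202 TPM, highest in replicate 3. Lama3, of the epithelial anchoring laminin, had 1.78, 2.11 and 3.79 TPM, and Lama2, typical of muscle and mesenchyme, had 1.09, 0.745 and 3.34 TPM. Lama1, an α chain of embryonic basement membranes, had 0.00663, 0.0187 and 0.0694 TPM. Lama4 made up 85.8%, 83.2% and 64.9% of laminin α TPM in replicates 1, 2 and 3, and Lama5 7.64%, 9.86% and 16.3%. These genes differ in transcript length, at 6046 bases for Lama4, 11388 for Lama5, 10548 for Lama3, 9614 for Lama2 and 9526 for Lama1. Over all expressed genes, the median level was 8.76 TPM for transcripts of 8000 bases or more, against 10.3 TPM between 6000 and 8000 bases and 38.9 TPM below 2000. What part length has in the order of the α chains was not tested.

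The 3 laminin β chains lay close together. Lamb3, known from the epithelial anchoring laminin, had 26.3, 31.6 and 31.5 TPM. Lamb1, the widespread β chain, had 24.0, 21.5 and 24.3 TPM, and Lamb2, its alternative in vessels, muscle and nerve, had 18.7, 18.0 and 19.7 TPM. The order Lamb3, Lamb1, Lamb2 was the same in all 3 libraries, with shares of 41.4 ± 3.23%, 32.4 ± 2.33% and 26.2 ± 0.90%. Lamb2 had the lowest coefficient of variation of all members, 4.37%, and that of Lamb1 was 6.79%.

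Of the γ chains, Lamc1, the chain of most laminins, had 15.3, 17.4 and 21.1 TPM, highest in replicate 3. Lamc3 had 0.313, 0.296 and 1.77 TPM, with replicate 3 far above the other 2. Of the chains of the epithelial anchoring laminin, Lamb3 stood 14.8-fold, 15.0-fold and 8.31-fold above Lama3 in replicates 1, 2 and 3.

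**Figure D2:**
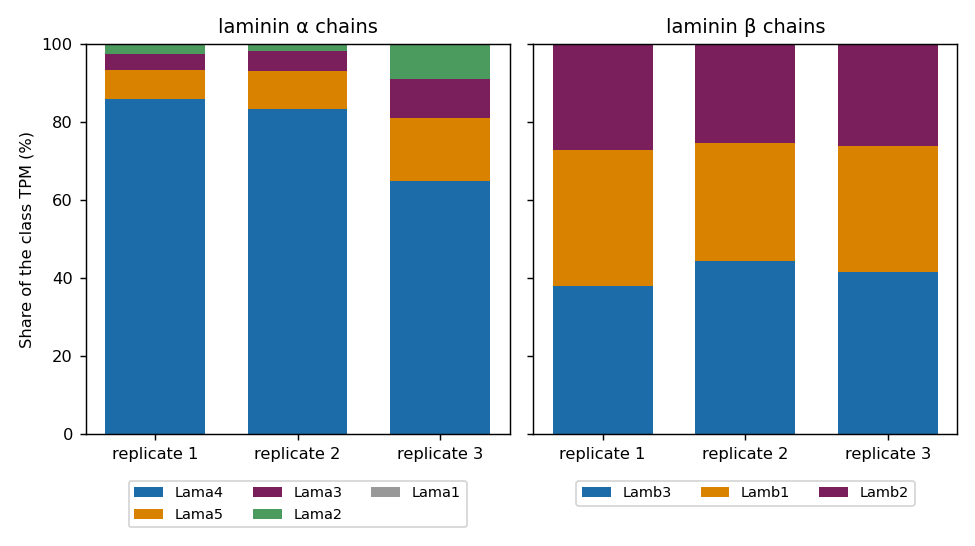
Share of each chain in the summed TPM of its class (%), as stacked bars for replicates 1, 2 and 3, with laminin α chains on the left and β chains on the right. Lama4 takes 64.9% to 85.8% of α chain TPM and is smallest in replicate 3, whereas the β chain shares differ little between libraries.

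The partners were all above 1 TPM in every library. Agrn, a heparan sulfate proteoglycan that binds laminin and dystroglycan, had 36.8, 36.9 and 30.9 TPM. Perlecan, encoded by Hspg2 (chromosome 4, 137468751 to 137570630), had 22.3, 23.0 and 29.5 TPM. Its longest GENCODE M21 transcript, at 14187 bases, is the longest of all members, but the length used for its TPM is not known. Replicate 3 was the lowest for Agrn and the highest for Hspg2. Nid1 had 13.2, 15.6 and 16.8 TPM and Nid2 8.54, 11.3 and 8.29 TPM, and their ranges did not overlap. Fn1 (chromosome 1, 71585473 to 71653280), the ligand of α5β1 that also lies in lymphatic valve leaflets, had 18.3, 13.9 and 29.1 TPM. Fn1 was highest in replicate 3, as were 5204 of 12862 expressed genes, and all 7 fibroblast markers were highest there as well.

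Related members were then compared within each library as a difference of log2(TPM + 1), over 9 pairs, of which 8 are reported here. In 7 of these the difference had the same sign in all 3 libraries. For each of these, flipping the signs of the libraries (exact permutation test, two-sided) gave p = 0.25, the lowest value this test can give with 3 libraries. The Benjamini-Hochberg adjusted value was 0.281 over the 9 pairs. No pair could therefore pass a threshold of 0.05 by this test, so it cannot decide on any pair.
Lama4 exceeded Lama5 by 2.60 ± 0.68 (6.05-fold on the TPM + 1 scale), with 3.15, 2.80 and 1.84 in replicates 1, 2 and 3. Itga9 exceeded Itga4 by 2.24 ± 0.91 (4.73-fold), with 2.88, 2.65 and 1.20. In both pairs the smallest difference was in replicate 3, and without it they averaged 2.98 and 2.77. Itga6 exceeded Itga3 by 1 ± 0.06 (2-fold), the difference in an integrin pair that varied least.
Itgb4 lay below Itgb1 by a difference of -1.17 ± 0.19, in 3 of 3 libraries. Lamb2 lay below Lamb1 (-0.29 ± 0.05), also in 3 of 3. Nid1 exceeded Nid2 by 0.65 ± 0.26. Hspg2 lay below Agrn by -0.48 ± 0.35, but by only -0.07 in replicate 3, where the 2 genes had almost the same level. Itgav and Itga5 had no common direction, with -0.49, 0.05 and -0.67 (exact sign-flip permutation p = 0.5, adjusted 0.5).

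**Figure D3:**
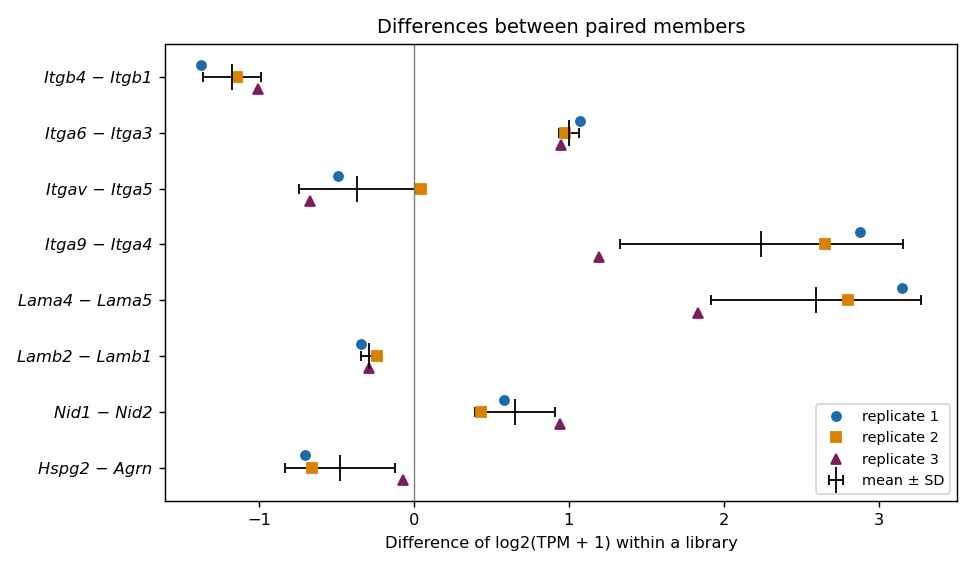
Difference of log2(TPM + 1) between the 2 members of each of 8 pairs within a library, first gene minus second. Coloured points stand for replicates 1, 2 and 3 and black bars for the mean ± SD, and Itgav minus Itga5 is the pair with points on both sides of 0.

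As subunits and chains act in complexes, sums of partners were compared. The 12 α subunits that can pair with β1 summed to 0.793, 1.24 and 1.41 times the level of Itgb1 in replicates 1, 2 and 3. This sum includes α4, αv and α6, which also have other β partners. Itgb4 stood at 1.19, 0.864 and 0.886 times Itga6. Itgb4 was 0.0521, 0.0555 and 0.0534 times the epithelial marker Epcam in replicates 1, 2 and 3. Among endothelial markers, it was 0.488, 0.594 and 0.604 times Pecam1, 1.38, 1.51 and 1.68 times Cdh5 and 0.105, 0.106 and 0.198 times Lyve1. Epithelial markers did not all move with Epcam, as Car1 had 2875, 5707 and 5629 TPM and Krt20 196.2, 213.5 and 329.7 TPM. Lama4 was 0.0341, 0.0297 and 0.0213 times Epcam, 0.319, 0.318 and 0.241 times Pecam1 and 0.905, 0.809 and 0.670 times Cdh5, each lowest in replicate 3. Against Lyve1 it was highest there, at 0.0688, 0.0567 and 0.0789. The ratios thus depended on the marker chosen. They describe 3 libraries and do not place either gene in a cell.

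Over all 12862 expressed genes, replicates 2 and 3 were the closest pair, with a median absolute difference of 0.121 in log2(TPM + 1), against 0.239 between replicates 1 and 2 and 0.269 between replicates 1 and 3. Over the expressed members the medians were 0.231, 0.237 and 0.434 for the same pairs. Replicates 1 and 3 were thus the farthest apart in both, and replicate 3 did not stand apart from the other 2 over genes as a whole. A subset of members stood apart in it. Of the 32 members of mean TPM 1 or more, 8 were at least 1.5-fold higher in replicate 3 than in both other libraries on the TPM + 1 scale (25%), against 3.78% of all genes tested. They were Fn1, Itga4, Itgam, Itgax, Itgb2, Itgb7, Lama2 and Lama3. Some passed the filter only through replicate 3. With the filter set on replicates 1 and 2, a choice made after seeing the data, 5 of 29 members were higher (2.81% of all genes), namely Fn1, Itgam, Itgb2, Itgb7 and Lama3. No member was lower in replicate 3 by this rule (1.11% of all genes), although Lama4 stood at 0.686 and Itga9 at 0.740 times their mean over replicates 1 and 2. By the same rule, 3 members (Itga1, Itga2 and Itga3) were lower in replicate 1 than in both others, at 9.38% of members and 8.41% of all genes. In replicate 2, Itgb2 was lower (1.21% of all genes), and no member was higher in replicate 1 (0.61%) or replicate 2 (0.757%).
Marker sums moved beside these members. In replicate 3 the fibroblast markers stood at 2.93 times, the lymphocyte markers at 2.94 times, the macrophage and dendritic cell markers at 2.61 times and the smooth muscle and pericyte markers at 1.98 times their mean in replicates 1 and 2. The lymphatic markers stood at 0.568 times and the 8 markers of all endothelium at 0.663 times, with all 8 lowest in replicate 3. The blood endothelial markers stood at 1.09 times, with 5 of the 12 highest there, Car4 at 1.98 times among them, and 6 lowest. The epithelial markers stood at 1.16 times. The part of these marker sums in the members' values was not tested.
For 11 of 42 members (26.2%), replicate 3 moved the mean by over 1.5 times, against 6.32% of all genes above 0 TPM without it. Low genes moved more often. Of members below 1 TPM without replicate 3, 8 of 13 moved, against 18.9% of all genes at that level, and of members at 1 TPM or more, 3 of 29 moved, against 1.45%. Without it the mean was 0.733 TPM for Itga4, 0.522 for Itga8, 0.397 for Itga11, 2.16 for Itgam and 0.713 for Itgax. It was likewise 2.49 TPM for Itgb2, 1.06 for Itgb7 and 0.158 for Itgb8, and 0.0127 for Lama1, 0.915 for Lama2 and 0.304 for Lamc3. The count of members at a TPM of 1 or more was 28 of 42 without replicate 3 as well, against 53.8% of all genes.

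**Figure D4:**
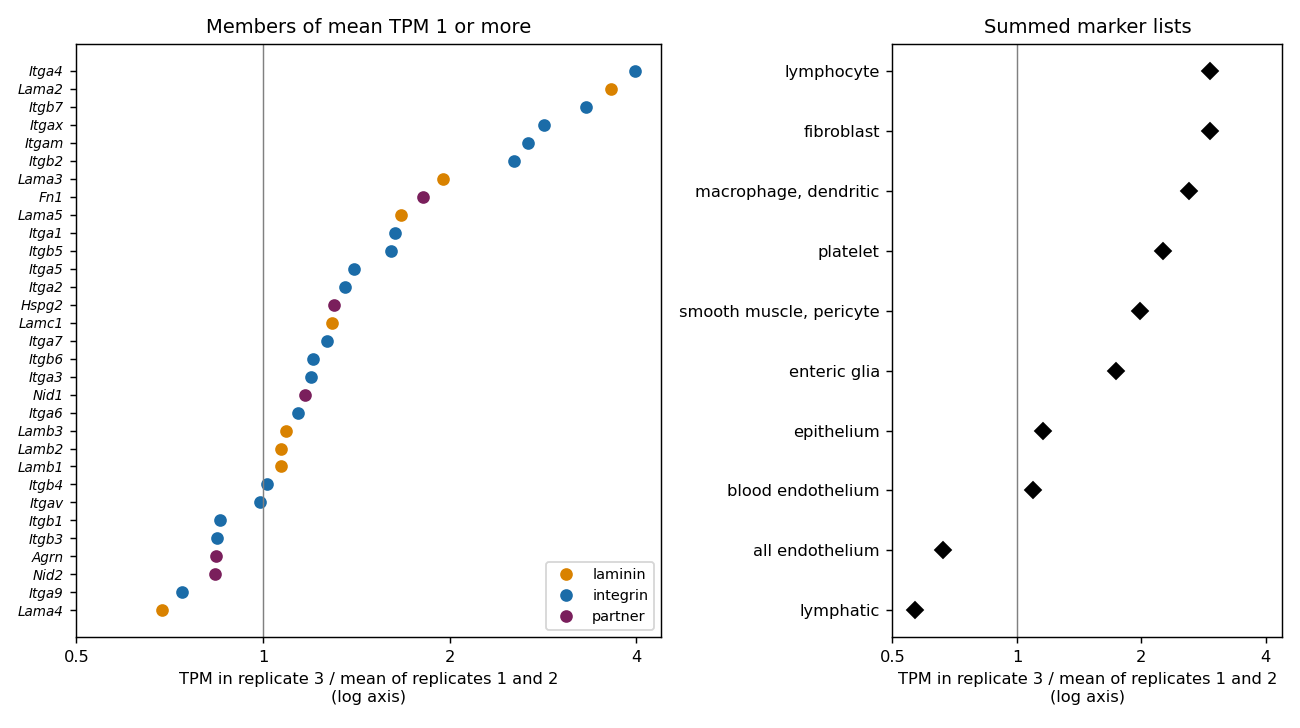
TPM in replicate 3 divided by the mean of replicates 1 and 2, on a log axis, for 31 members of mean TPM 1 or more (left) and for the summed markers of 10 cell types (right). Members were chosen by their mean over all 3 libraries, so Itga4 at 3.98, Lama2 and Itgax are shown only because of their level in replicate 3. Lama4 lies at 0.686, and the marker sums run between 2.94 for lymphocytes and 0.568 for lymphatic endothelium.

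Other genes of integrin adhesion were read from lists, beside the 53.4% of all genes that reached a TPM of 1 in all libraries. Of 18 cytoplasmic adaptors and kinases, 17 reached a TPM of 1 in all libraries, led by Ilk (71.2 ± 4.395), the scaffold of the ILK complex, Pxn (68.4 ± 8.63), which encodes paxillin, and Src (49.8 ± 11.9). Without replicate 3, Lims1 (49.1) and Parva (45.8) stood above Src (43.9). Among the kindlins, which activate integrins through the β tail, Fermt1 of epithelia had 26.3, 43.6 and 47.9 TPM and the widely expressed Fermt2 14.6, 14.5 and 15.6 TPM. Fermt3 of blood cells had 4.63 ± 1.22 TPM. Of 4 hemidesmosome partners, 3 passed: the tetraspanin Cd151 (155.8 ± 9.23), Dst (34.9 ± 3.75) and Plec (30.5 ± 11.3). Col17a1, a component of the hemidesmosomes of skin, was at 0.0535 ± 0.0230 TPM. The other laminin receptors were Rpsa (2096 ± 414), which also is a ribosomal protein, Dag1 (51.8 ± 12.7), which encodes dystroglycan, and Bcam (24.3 ± 14.2).

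Of 12 ligand genes, 9 passed, led by Cdh1, Icam2 (38.0 ± 9.59) and Emilin1 (19.8 ± 0.818). Without replicate 3, Icam1 (22.1) and Thbs1 (20.5) stood above Emilin1 (20.1). Emilin1, a ligand of α9 integrin in lymphatic valves, had 20.8, 19.4 and 19.4 TPM, close together in the 3 libraries. Svep1, a matrix protein that binds α9 integrin, had 0.992, 1.25 and 3.81 TPM. The α4 integrin ligand Vcam1 had 2.28, 1.43 and 3.63 TPM, and Madcam1, the ligand of α4β7 on gut vessels, had 3.30, 1.06 and 11.4 TPM. Svep1, Vcam1 and Madcam1 were highest in replicate 3. Cdh1, which encodes E-cadherin and is the epithelial ligand of αEβ7, had 246.7 ± 43.6 TPM. Among 12 other basement membrane genes, 7 passed, a share near the 53.4% of all genes. The highest means were those of Sparc (83.0 ± 60.6), Col18a1 (60.6 ± 10.7) and Col4a1 (54.1 ± 4.37). Sparc had 55.8, 40.7 and 152.3 TPM and was highest in replicate 3. Without replicate 3 its mean was 48.3 TPM, below both Col18a1 and Col4a1. Col18a1 had 68.2, 65.2 and 48.4 TPM and was lowest there.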

How the data were processed

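Libraries of sorted lymphatic endothelial cells were deposited as 1 table each, with 24091 genes by Entrez ID and symbol. The authors' values are TPM, per the file headers, and sum to between 999896 and 999939 per library. The submitters' processing notes name mm10, Cell Ranger 6.0.1 and HTSeq. How TPM was computed, the annotation and the strand setting are not given in the sources used here. TPM keeps no sequencing depth, so no counting interval is given and low values are uncertain.

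All 42 members matched RefSeq genes of GRCm38.p6 by ID, with the same symbol, and coordinates are 1-based. Transcript lengths are those of the longest protein-coding GENCODE M21 transcript. Genes with at least 1 TPM in each library are called expressed. Logs are log2(TPM + 1), which understates folds of low genes. Variable genes had an SD above percentile 95 among genes of like level (20 equal bins of the 13606 genes of mean TPM 1 or more). Pairs of genes were compared by an exact permutation test (two-sided) that flips the sign of each library and cannot give a p below 0.25 with 3 libraries. The steps were tested on simulated data. Every member is named except 1, which is counted but not reported here. Other laminin chains, paired members and those of mean TPM 10 or more have their value in each library, and the 3 highest genes of each pathway list, with 5 known ligands, are named. Members and lists were chosen with earlier results of these data known. The work used matplotlib 3.10.9, pandas 2.3.3 and numpy 2.4.6 under Python 3.11.15.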

Additional observations from a re-analysis of the deposited data

How the results depend on the processing

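Alternatives were another pseudocount (0.1), median-of-ratios scaling, TPM without 86 ribosomal protein genes, medians over libraries, other thresholds and leaving out each replicate. The mean or median difference of each of the 9 pairs kept its sign under each alternative that bears on levels, Itgav minus Itga5 included, whose libraries do not share a sign. Of 37 class shares, 7 moved by over 1.5 times without replicate 3. Those of Lama2 and Itga4 were 2.14% and 0.483% without it, against 4.34% and 0.838% with it, those of Itgb2, Itgb7 and Itgb8 1.05%, 0.446% and 0.0666%, against 1.59%, 0.799% and 0.106%, and the others were Lama1 and Lamc3. The number of expressed members, 28, stayed between 20 (TPM of 5, 40.7% of all genes) and 34 (TPM of 0.5, 57.2%), and was 28 to 29 without a replicate. The number of variable members, 1 of 32, was 6 of 32 with percentile 90 (10% of all genes), 2 of 32 with a pseudocount of 0.1 (5%), 2 of 42 with no filter on mean TPM (5.03%), 2 of 32 with median-of-ratios scaling (5%) and 1 to 3 of 29 to 35 without a replicate (4.99% to 5.1%). Counts of members standing apart in a library depended on the fold and the scaling. Of the 8 higher in replicate 3, the count was 4 at 2-fold (1.46% of all genes) and 6 with median-of-ratios scaling (3.08%). With the filter on replicates 1 and 2, it was 5 of 29 members (2.81%). Of the 3 lower in replicate 1, the count was 1 at 2-fold (1.71%) and 1 with median-of-ratios scaling (3.8%). The 1 lower in replicate 2 became 0 at 2-fold (0.36%). Beyond the changed thresholds themselves, the cause was not tested. No paired analysis was possible because the series holds 1 group. TPM gives no depth, so the precision of members below 1 TPM is not known.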
